A study of Mus musculus with 4 samples.

Results

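Complement is a cascade of plasma and cell-surface proteins that marks targets and opens membranes. The 9 genes described here encode components, inhibitors and a receptor of that cascade: C1ra, C1s1, C4b, C3, Cfb, Serping1, Cd55, Cd59a and C3ar1. They were taken by exact symbol from the 52636 genes of the matrices, and each symbol matched 1 gene. The cells came from glomeruli, the filtering tufts of the kidney, of young and aged mice. Mice of both ages were untreated and were perfused with magnetic beads, and bead-filled glomeruli were pulled out magnetically before digestion into single cells. There were 2 young and 2 aged droplet libraries. The age in months, sex, strain, genotype and number of mice behind a library are not given in the labels, so p-values measure only the spread between these libraries, which may be technical.

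Complement is started by antibody through C1 (the classical pathway), by sugar-binding lectins, or by slow spontaneous hydrolysis of C3 (the alternative pathway). All routes meet at cleavage of C3, which releases the small signal peptide C3a and leaves C3b on surfaces, and later steps build the membrane attack complex. Host cells hold the cascade back with C1 inhibitor, decay accelerating factor and CD59, and in the kidney a failure of this restraint is a known cause of glomerular disease. The liver makes most plasma complement, while cells of the kidney also make some components. Droplet counts report messenger RNA in the cell and not the protein deposited in the tissue.

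The promoters of C3 and C1s1 are shown because both genes had high levels in only a few cell classes. Their upstream bases also hold several matches to 1 motif. Both sequences are the 250 bases before the RefSeq start site on GRCm38.p6, 5′ to 3′ on the strand of the gene. Capitals mark TTNNGNAA, the core of the site bound by C/EBP factors, searched on both strands. C3 lies at chr17:57203970-57228136 on the minus strand, and the stretch printed is chr17:57228137-57228386. C1s1 lies at chr6:124530345-124542359 on the minus strand, and the stretch printed is chr6:124542360-124542609.
C3: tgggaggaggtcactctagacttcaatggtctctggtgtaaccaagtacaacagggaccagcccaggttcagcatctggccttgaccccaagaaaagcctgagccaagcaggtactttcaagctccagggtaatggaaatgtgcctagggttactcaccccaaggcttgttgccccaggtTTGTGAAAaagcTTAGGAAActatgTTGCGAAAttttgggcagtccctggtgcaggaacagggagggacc
C1s1: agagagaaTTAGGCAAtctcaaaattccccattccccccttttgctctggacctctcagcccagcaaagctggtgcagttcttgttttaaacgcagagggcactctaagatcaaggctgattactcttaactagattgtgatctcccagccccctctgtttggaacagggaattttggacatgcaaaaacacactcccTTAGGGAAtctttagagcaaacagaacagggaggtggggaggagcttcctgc
The C3 promoter held 3 matches, which began 70, 58 and 45 bases before the start site. The C1s1 promoter held 2, at 242 and 52 bases before it. A second C1s1 start site in RefSeq, with its window at chr6:124542322-124542571, held 1 match, 90 bases before that site; it is not printed because 38 of its bases are in annotated exons. Of 32851 promoters searched over the same length, 36.85% held at least 1 match, so a match is common. Neither printed promoter held TTCNNNGAA (a GAS site, in 7.02% of promoters). A match is a description of letters and not of binding, and promoters were matched for 6 of the 9 genes.

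C1ra (chr6:124512405-124523443, plus strand) and C1s1 are neighbours that converge, with 6901 bases between them. C4b lies at chr17:34728380-34743882 and Cfb at chr17:34856374-34862518, both on the minus strand. Serping1 lies at chr2:84765387-84775444 and Cd55 at chr1:130439027-130462744, also on the minus strand. Cd59a lies at chr2:104095801-104115354 on the plus strand and C3ar1 at chr6:122847138-122856161 on the minus strand. These positions are from GENCODE vM21 on GRCm38. Cfb shares 79.5% of its exonic bases with the overlapping gene Gm20547 on the same strand. Gm20547 had 0 unique molecular identifiers (UMIs) in every library, so how reads were divided between the pair is uncertain. Some 3′ sequence is shared with close relatives as well. Over the last 500 bases, 38.14% of the 50-base words of C4b were also in C4a, 17.96% of those of C1s1 in C1s2 and 19.07% of those of C1ra in C1rb. No such word of Cd55 or Cd59a was in Cd55b or Cd59b.

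Filtering left 5035 and 6976 young and 9187 and 6802 aged cells. Clusters were named from marker genes, and UMIs were summed per class and library. Levels are given as CPM, the UMIs per 1000000 UMIs of that class in that library, in the order young replicate 1, young replicate 2, aged replicate 1, aged replicate 2. Young replicate 2 stood apart: 59.6% of its cells stayed unnamed, against 4.39%, 4.44% and 7.39% in the other libraries, and its median was 1258 UMIs per cell against 2715 to 3730. Its unnamed cells included 1894 of a mixed cluster with podocyte as the top marker class. A further 1704 lay in a cluster of low marker level with Sfrp2, Ptn and Pdgfrb among its leading genes. Between 9 and 31 cell barcodes were shared by any pair of libraries, at most 0.346% of the smaller one. Of 10 podocyte markers all had UMIs in podocytes of each library. A class of 32 and 31 young and 50 and 59 aged cells was set apart by its level of a list of 10 parietal epithelial markers, among them Krt8, Krt18 and Pax8. It joins 3 subclusters, led by Igfbp2, by Spp1 and Pcp4, and by Spp1 and Gpx3 with Krt8 and C3. The first and second had no parietal marker but the smooth muscle gene Tagln among their 10 leading genes, so the class is given no cell type name and is called the parietal-marker cluster. Its make-up differed between libraries. The subcluster with Krt8 gave only 5 and 5 young and 13 and 13 aged cells. The Igfbp2-led subcluster gave 17 and 17 young but 10 and 29 aged cells, and the Spp1- and Pcp4-led one 10 and 9 against 27 and 17. The summed parietal markers were not higher there in every library (2962, 4552, 5543 and 4401 CPM) than in distal tubule and collecting duct cells (4426, 1710, 4856 and 4731 CPM). Smooth muscle and renin markers in the cluster stood at 2477 and 2794 CPM in young and 5240 and 7405 CPM in aged libraries. What this does to age differences in the cluster was not tested.

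Age was tested in each class with edgeR's quasi-likelihood test on the library sums, with a call at a Benjamini-Hochberg adjusted p under 0.05 over all genes tested in the class. A log2 fold change is aged against young, with its standard error (SE). In mesangial cells 3 of the 6 members that passed the count filter rose with age, where 6.78% of all genes tested were called and 4.25% were called higher. In endothelial cells 2 of 5 rose, where 6.12% were called and 4.04% were called higher. No member was called lower in any class, though some uncalled log2 fold changes were negative. None of 4 members was called in podocytes (5.76% of all genes), none of 2 in smooth muscle and renin cells (1.54%), none of 4 in the parietal-marker cluster (3.1%) and the 1 tested in B cells was not called. In B cells edgeR called 0.0% of genes, with 187 of 1837 at an unadjusted p under 0.05, and DESeq2 called 0. Members that passed the filter are not all members: 8 of 9 had UMIs in mesangial and 9 of 9 in endothelial cells. The filter asks for a sufficient level in 2 libraries. In mesangial cells Cfb, with 7 and 3 young UMIs, met it only with the aged libraries. Cd55, at 4.12 and 4.78 CPM in young and 2.53 and 3.50 CPM in aged cells, met it only with the young ones. The mesangial count and median include both. The median log2 fold change was 0.58 over the 6 mesangial members and -0.01 over all mesangial genes tested. It was 0.32 against -0.01 in endothelial cells, 0.27 against 0.01 in podocytes and -0.62 against 0.00 in the parietal-marker cluster.

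**Figure D1:**
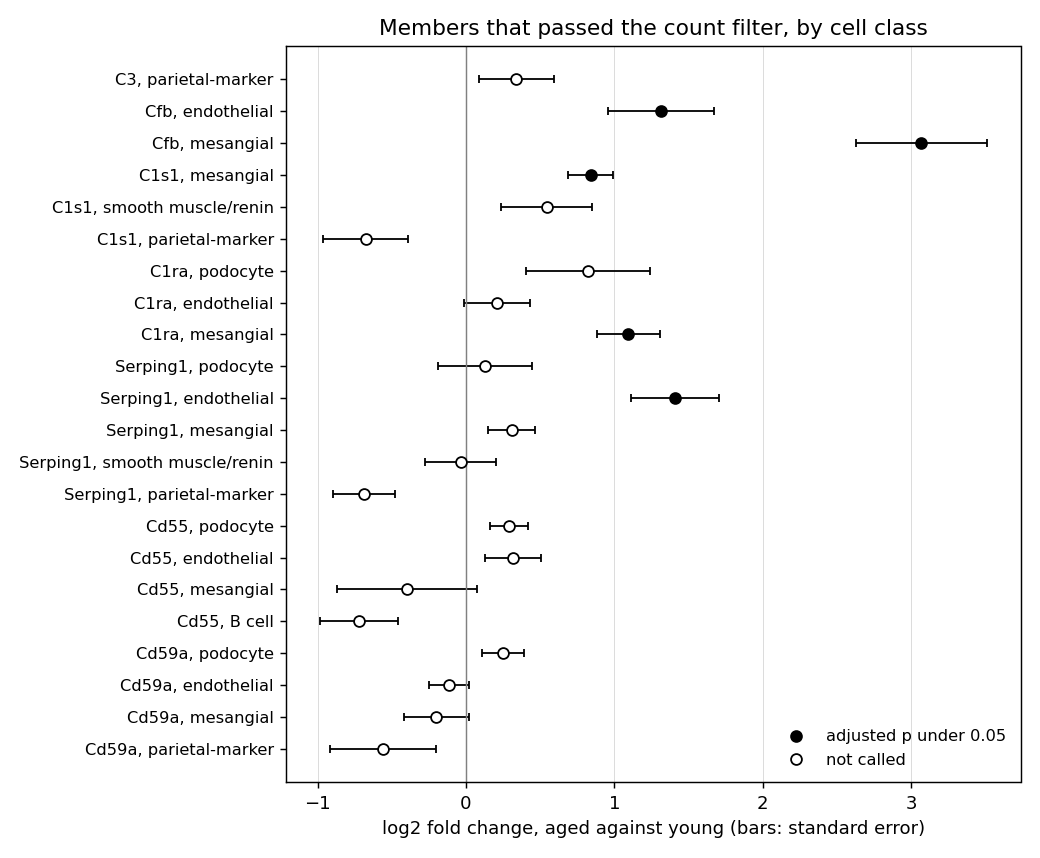
Log2 fold change, aged against young, of each of the 22 member and class combinations that passed the count filter (horizontal axis, bars are 1 SE), with filled points for those called. The filled points are Cfb, C1s1 and C1ra in mesangial cells and Serping1 and Cfb in endothelial cells, all above 0.

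Scaling bears on direction. With library totals in place of TMM factors, a setting chosen after seeing the data, the median of all genes moved to -0.13 in endothelial and -0.14 in mesangial cells. The calls then split into 389 higher and 506 lower in endothelial cells, against 531 and 274 with TMM, and into 338 and 459 against 471 and 280 in mesangial cells. In smooth muscle and renin cells the split was 31 and 35 against 35 and 23. The directions of the 5 member calls did not change. The mesangial comparison also set largely different clusters side by side. A Gucy1a3-led cluster held 367 and 227 young but 26 and 14 aged cells, and a cluster led by Cxcl13, Ccl2 and Serpine2 held 27 and 13 young but 672 and 541 aged cells. These counts precede the removal of cells with markers of an unrelated class, which took out more young than aged cells. The mesangial class tested held 288 and 178 young and 690 and 545 aged cells. With mixed clusters and cells kept, 1544 rather than 751 mesangial genes were called.

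Cfb encodes factor B, the protease of the alternative pathway C3 convertase. In mesangial cells, the contractile cells between glomerular capillaries, it had 7 and 3 young UMIs against 80 and 185 aged ones. That is 3.21 and 2.39 CPM against 15.6 and 29.4 CPM. Both aged libraries were far above both young ones, and the aged ones also differed from each other. The mean rose from 2.80 ± 0.58 to 22.5 ± 9.77 CPM (SD, n = 2 each), a log2 fold change of 3.07 (SE 0.44, adjusted p = 0.00173). Without young replicate 1 the adjusted p was 0.244 and without young replicate 2 it was 0.208, with log2 fold changes of 3.36 and 2.92. In both of those settings few genes of any kind were called, 0 and 10.

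The rise in Cfb went with the change of cluster. In the Cxcl13-led cluster Cfb had 1 and 0 young UMIs against 78 and 185 aged ones, and the aged level was 15.5 and 29.7 CPM. In the Gucy1a3-led cluster it had 6, 3, 2 and 0 UMIs. In the mesangial sums the list of 10 parietal epithelial markers also moved, at 680 and 709 CPM in young and 2474 and 1455 CPM in aged libraries, or 15%, 15.7%, 54.7% and 32.2% of its own level. Cp, 1 gene of that parietal list, is also among the leading genes of the Cxcl13-led cluster. Neutrophil markers stood at 2.75, 3.98, 74.4 and 4.61 CPM, and the mesangial markers themselves at 14992, 14927, 13677 and 12571 CPM. The part of these in the mesangial results was not tested. Too few cells of the other age lay in either cluster to separate age from cluster. Age and cluster cannot be told apart for Cfb, nor for the other mesangial calls below, where the same clusters were summed.

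C1r and C1s are the paired serine proteases of the first component, and their genes C1ra and C1s1 both rose in mesangial cells. C1s1 stood at 141 and 147 CPM in young and 215 and 256 CPM in aged mesangial cells. The aged values did not overlap the young ones, and 53.8% of all genes tested there had groups without overlap after TMM scaling. The mean rose from 144 ± 4.27 to 236 ± 29.1 CPM (SD, n = 2 each), a log2 fold change of 0.84 (SE 0.15, adjusted p = 0.00656). C1ra stood at 34.8 and 31.1 CPM in young and 52.4 and 77.7 CPM in aged cells, again without overlap. Its log2 fold change was 1.09 (SE 0.21, adjusted p = 0.00945). Without young replicate 1 the adjusted p was 0.288 for C1s1 and 0.280 for C1ra, and without young replicate 2 it was 0.278 and 0.319.

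In both mesangial clusters the aged values of C1ra lay above the young ones, on few UMIs. In the Gucy1a3-led cluster it stood at 35.0 and 30.7 CPM in young and 43.8 and 72.5 CPM in aged cells, the latter from 5 UMIs each. In the Cxcl13-led cluster it stood at 31.0 and 41.1 CPM in young cells, from 3 and 2 UMIs, and 52.6 and 77.8 CPM in aged cells. These within-cluster values were not tested.

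**Figure D2:**
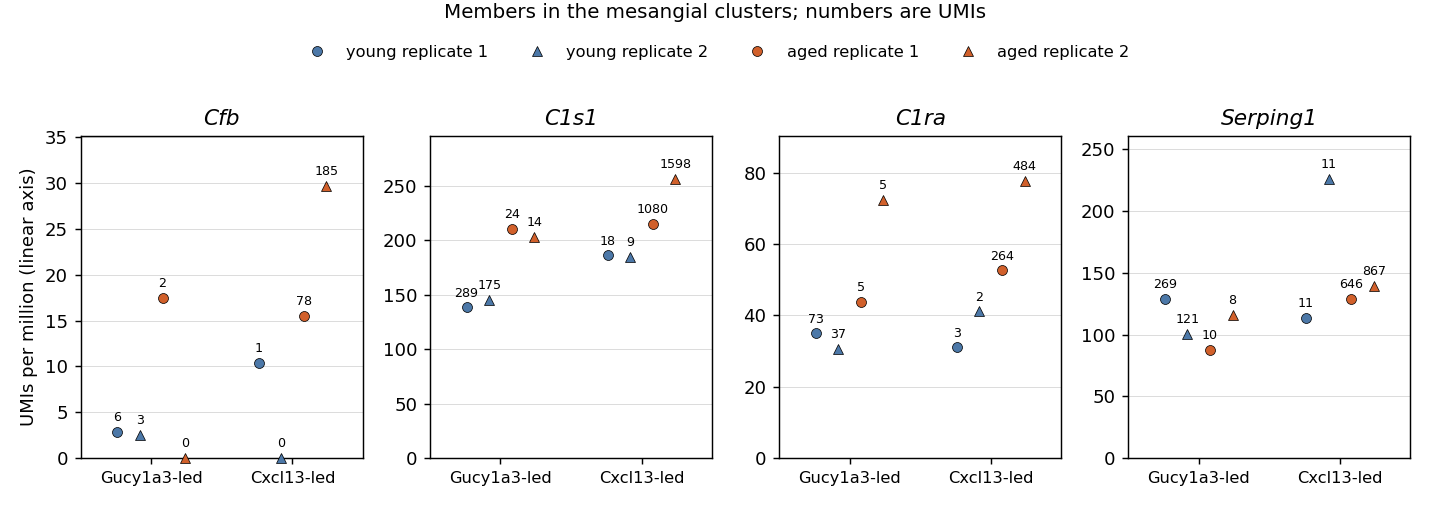
CPM (vertical axis) of Cfb, C1s1, C1ra and Serping1 in the Gucy1a3-led and the Cxcl13-led mesangial cluster, 1 point per library, with the UMI number beside each point. Young points in the Cxcl13-led cluster and aged points in the Gucy1a3-led cluster rest on few UMIs, such as 1 and 0 young UMIs of Cfb.

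The share of mesangial cells with a C1s1 UMI was 51.4% and 53.9% in young and 64.5% and 76.9% in aged libraries. Thinned to 1000 UMIs per cell, which left out 1 to 3 cells a library, it was 13.9% and 18.2% against 20.1% and 20.6%. C1s1 background was low, since 0.197% or fewer of the cells in each macrophage library had a UMI. C1s1 was also seen in the parietal-marker cluster at 136 and 150 CPM in young and 84.1 and 90.2 CPM in aged cells. Here the aged values were lower without overlap, as the groups of 48.8% of genes tested there were apart, but the change of -0.68 was not called (SE 0.29, adjusted p = 0.251). The age difference of C1s1 was lower in that cluster than in mesangial cells by 1.45 on the log2 scale (SE 0.33, adjusted p = 0.0189, edgeR interaction test), a test that called 1.03% of genes. The subclusters did not share 1 pattern, on few cells: the one with Krt8 held 5 and 5 young and 13 and 13 aged cells. C1s1 stood at 214, 195, 141 and 126 CPM in the Igfbp2-led subcluster, at 68.5, 88.5, 91.9 and 46.7 CPM in the Spp1- and Pcp4-led one, and at 24.2, 122, 48.2 and 53.7 CPM in the one with Krt8. Age and make-up cannot be told apart in the sum. In smooth muscle and renin cells C1s1 stood at 74.0, 111, 136 and 123 CPM, a log2 fold change of 0.54 (SE 0.31) that was not called (adjusted p = 0.471). C1ra was not called in endothelial cells (0.21) or podocytes (0.82).

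C3, the component on which all routes meet, had its highest mean level of the tested classes in the parietal-marker cluster. That cluster carried 57.3%, 23.5%, 38.9% and 23.1% of all C3 UMIs. C3 was also seen in myeloid cells and, mostly in aged replicate 2, in mesangial cells and 1 small unnamed cluster. In the parietal-marker cluster it stood at 433 and 238 CPM in young and 431 and 413 CPM in aged libraries, from 67, 35, 128 and 220 UMIs. The young libraries differed from each other by more than the ages did, and the log2 fold change of 0.34 was not called (SE 0.25, adjusted p = 0.530). It was 0.93 without young replicate 1 and -0.02 without young replicate 2. A C3 UMI was found in 53.1% and 38.7% of young and 70.0% and 69.5% of aged cells of the cluster. In young replicate 1, a single cell of the cluster carried 21 of the 67 UMIs. C3 differed between the subclusters in the same order in all 4 libraries, though the subcluster with Krt8 held only 5 and 5 young cells. It stood at 131, 74.9, 188 and 208 CPM in the Igfbp2-led one, at 274, 354, 441 and 537 CPM in the Spp1- and Pcp4-led one, and at 1164, 383, 546 and 692 CPM in the one with Krt8. Thinned to 1000 UMIs the shares of the whole cluster were 25.0%, 19.2%, 34.0% and 28.8%, with intervals that overlap. Endothelial cells, which gave the background, had a UMI in at most 0.0931% of cells, at median depths of 2318 to 3230 UMIs against 3021 to 5669 in the cluster.

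Among myeloid cells, in an unnamed cluster led by Clec4e and Lyz2, the latter encoding the lysozyme of myeloid cells, 29.6% and 27.4% of young and 26.1% and 33.2% of aged cells had a C3 UMI. In cells with macrophage markers the aged libraries differed from each other. Aged replicate 1 had 32 UMIs (9.12 CPM, exact 95% interval 6.24 to 12.9) in 4.85% of cells, and aged replicate 2 had 367 (73.6 CPM, 66.3 to 81.5) in 28.9% of cells. Thinned to 1000 UMIs these shares were 1.04% and 6.30%. The young libraries held 3 and 12 macrophages with 0 and 1 cell with a C3 UMI, too few for a comparison of ages. C3 in mesangial cells came almost wholly from aged replicate 2, with 88 UMIs in 44 cells, against 0, 1 and 2 UMIs in the other libraries. The sum of 10 macrophage markers in mesangial cells was not higher in that library, at 3.83%, 4.09%, 4.86% and 4.15% of its macrophage level. Single markers differed: Lyz2 stood at 5.04, 5.58, 8.38 and 31.2 CPM, Cd68 at 8.24, 7.17, 7.21 and 6.04 CPM, and Adgre1 at 0, 0, 0.195 and 0 CPM. The part of myeloid RNA in the mesangial C3 was not tested. An unnamed cluster led by Sox9, Gpc3 and Spink8, with markers of more than 1 class, had 73 cells in aged replicate 2 and 1 in young replicate 2. In aged replicate 2 a C3 UMI was in 23.3% of its cells (exact 95% interval 14.2% to 34.6%), from 27 UMIs. Aged neutrophils, 56 and 15 cells, had 18 and 7 C3 UMIs (209 and 236 CPM). Intervals cover counting error only.

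**Figure D3:**
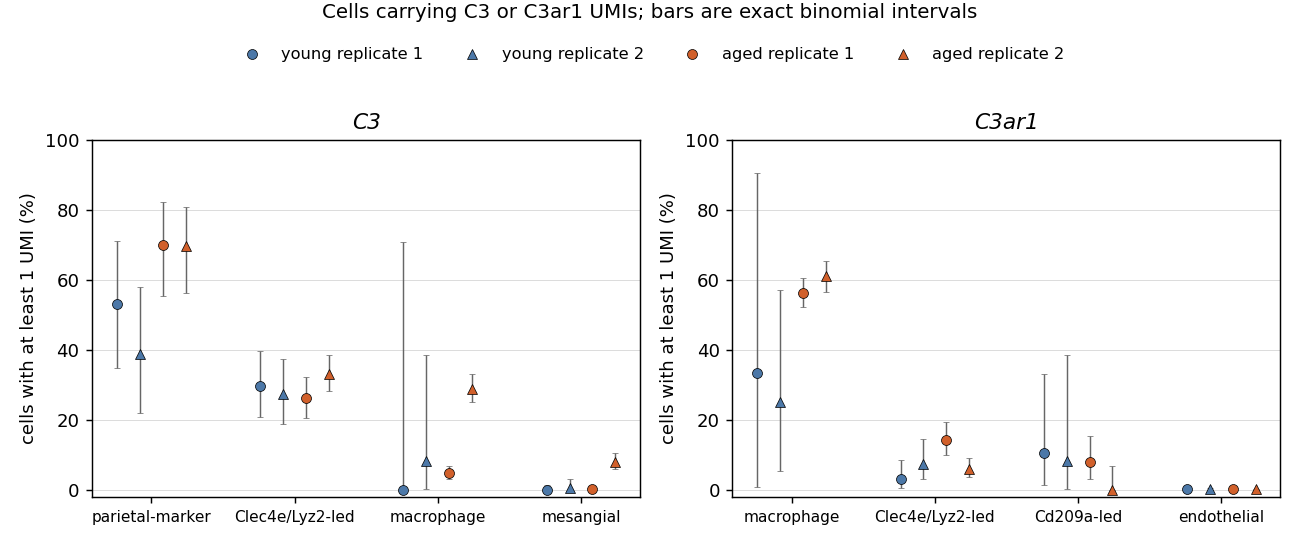
Percent of cells with at least 1 UMI of C3 (left panel) or C3ar1 (right panel), without thinning, by library, with exact 95% binomial intervals. C3 is in 38.7% or more of parietal-marker cells of every library, and C3ar1 is in 56.3% and 61.0% of aged macrophages.

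C4b encodes C4, which C1s cleaves to build the classical convertase. It was at 0 UMIs in all classes of both young libraries. Aged macrophages had 3 UMIs in 3 cells of replicate 1 and 33 UMIs in 24 cells of replicate 2, and 1 further UMI lay in an aged endothelial cell. In aged replicate 2 the macrophage level was 6.62 CPM (exact 95% interval 4.56 to 9.30). In the young libraries 3 and 12 macrophages were found, so a difference between ages was not detectable at this depth.

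Serping1 encodes C1 inhibitor, the main plasma inhibitor of C1r and C1s. It was highest in the parietal-marker cluster (205 to 369 CPM over the 4 libraries) and in smooth muscle and renin cells (193 to 251 CPM), whose ranges overlap. Mesangial cells followed at 105 to 139 CPM, then podocytes (4.84 to 5.72 CPM) and endothelial cells (2.36 to 6.94 CPM), whose ranges overlap. B cells ranged over 0 to 28.0 CPM, from 3 UMIs in 1 cell of young replicate 2 and 0 in the other libraries. The mesangial values of 128, 105, 128 and 139 CPM overlapped between ages, and the log2 fold change of 0.31 was not called (SE 0.16, adjusted p = 0.281). That overlap is on CPM without TMM factors. The mesangial factors were 1.04, 1.05, 0.933 and 0.98, and after scaling by them both aged values lie above both young ones. The groups of 53.8% of mesangial genes tested were apart on that scale. In the parietal-marker cluster Serping1 stood at 369 and 361 CPM in young and 205 and 237 CPM in aged libraries. Both aged values lay below both young ones, but the change of -0.69 was not called (SE 0.21, adjusted p = 0.115). In the Igfbp2-led subcluster it stood at 487, 570, 235 and 312 CPM, in the Spp1- and Pcp4-led one at 377, 266, 257 and 210 CPM, and in the one with Krt8 at 121, 157, 144 and 125 CPM. In smooth muscle and renin cells the libraries stood at 251, 206, 231 and 193 CPM, a log2 fold change of -0.04.

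In endothelial cells Serping1 rose with age from a low level. It had 15 and 13 UMIs in young and 104 and 113 in aged libraries, or 2.36 and 3.29 against 6.48 and 6.94 CPM. The groups did not overlap, which held for 48.8% of all endothelial genes tested, and the mean moved from 2.82 ± 0.66 to 6.71 ± 0.33 CPM (SD, n = 2 each). The log2 fold change was 1.41 (SE 0.30, adjusted p = 0.00539). The call was lost without young replicate 1 (1.21, adjusted p = 0.112), with DESeq2 (adjusted p = 0.0540) and without the count filter (0.115). A Serping1 UMI was found in 0.581% and 0.955% of young and 1.70% and 2.44% of aged endothelial cells. Thinned to 1000 UMIs the shares were 0.126%, 0.329%, 0.614% and 0.795%. Aged macrophages had 0% thinned, while thinned podocytes had 0.634%, 0.550%, 0.408% and 0.308%, from 11, 3, 4 and 2 cells. The endothelial shares are thus at the scale of another class with a low level. The thinned podocyte shares were not higher in aged libraries, on few cells. Unthinned, the podocyte shares were 2.07% and 3.24% in young and 3.26% and 3.84% in aged libraries. The endothelial level was 1.84%, 3.13%, 5.07% and 4.99% of the mesangial level, while the sum of 10 mesangial markers in endothelial cells was 3.34%, 3.94%, 3.03% and 3.21% of its own level and was not higher in aged libraries. The part of mesangial RNA in the Serping1 result was not tested. The Tspan8-led endothelial cluster had the values 10.7, 5.56, 11 and 15.8 CPM.

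The age difference of Serping1 itself differed between classes. It was lower in mesangial than in endothelial cells by 1.13 on the log2 scale (SE 0.28, adjusted p = 0.0304), a test that called 3.02% of genes. It was lower in the parietal-marker cluster than in endothelial cells by 1.97 (SE 0.40, adjusted p = 0.000696), a test that called 1.31%, with the change of make-up given above. Over the 6 pairs of glomerular classes, 20 member and pair combinations could be tested, and 3 passed. The other pairs called 6.46% (podocyte and endothelial), 3.4% (podocyte and mesangial) and 2.47% (podocyte and parietal-marker) of genes. Serping1 between podocytes and endothelial cells did not pass, at 1.32 (SE 0.42, adjusted p = 0.0557). Cfb did not pass between mesangial and endothelial cells (1.75, SE 0.53, adjusted p = 0.0872), nor did C1ra (0.86, adjusted p = 0.142).

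Cfb in endothelial cells was the weaker of the 2 endothelial calls. It had 17 and 8 UMIs in young and 67 and 113 in aged libraries, or 2.68 and 2.02 against 4.17 and 6.94 CPM, without overlap. The log2 fold change was 1.32 (SE 0.36, adjusted p = 0.0300). It was called in 8 of 15 alternative settings. The adjusted p was 0.116 without young replicate 1, 0.256 without young replicate 2 and 0.304 without aged replicate 2, where the log2 fold change was 0.91. Aged libraries held many more cells of a Sele-led endothelial cluster (226 and 158 young, 2094 and 1082 aged). Without that cluster, a setting chosen after seeing the data, the change was 1.28 with an adjusted p of 0.0574. Aged macrophages had 0 and 9 Cfb UMIs (1.81 CPM in replicate 2), lower than the aged endothelial level.

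Cd55 and Cd59a encode membrane-anchored inhibitors. Cd55 (decay accelerating factor) takes apart C3 convertases and Cd59a blocks the membrane attack complex. Of the tested classes, podocytes had the highest mean level of both; they are the epithelial cells that wrap the capillaries. Cd59a stood at 1228 and 1223 CPM in young and 1391 and 1408 CPM in aged podocytes. The aged values were the higher ones without overlap, as the groups of 46.3% of podocyte genes were apart, but the log2 fold change of 0.25 was not called (SE 0.14, adjusted p = 0.395). Cd55 stood at 381, 393, 449 and 459 CPM, and its change of 0.29 was not called either (SE 0.13, adjusted p = 0.242). A Cd59a UMI was in 70.2%, 68.4%, 74.6% and 72.3% of podocytes thinned to 1000 UMIs, against 0.173% and 0.197% of aged macrophages. A Cd55 UMI was in 31.7%, 34.9%, 36.6% and 38.7% of thinned podocytes.

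Below podocytes, Cd59a was next at 67.6 to 155 CPM in the parietal-marker cluster and 77.7 to 95.8 CPM in endothelial cells, whose ranges overlap, then at 23.4 to 59.3 CPM in smooth muscle and renin cells and 21.2 to 33.5 CPM in mesangial cells. In endothelial cells it stood at 89.0 and 95.8 CPM in young and 78.9 and 77.7 CPM in aged libraries, a difference of -0.11 (adjusted p = 0.722). Cd55 in B cells stood at 406, 448, 285 and 238 CPM. Its log2 fold change of -0.72 was not called (SE 0.26, adjusted p = 0.283). B cells and podocytes overlapped in Cd55 level (238 to 448 and 381 to 459 CPM), and T and NK cells (41.8 to 128 CPM) and endothelial cells (12.9 to 18.5 CPM) followed. In aged macrophages Cd55 had 2 UMIs in replicate 1 and 92 in replicate 2.

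Sums over all cells of the membrane inhibitors were lower in the aged libraries. Cd59a stood at 529 and 478 CPM in young and 279 and 239 CPM in aged libraries, and Cd55 at 160, 139, 85.5 and 76.6 CPM. Podocytes carried 90.1%, 50.3%, 80.6% and 78.1% of all Cd59a UMIs and were 34.5%, 7.96%, 10.7% and 9.57% of cells. The values of young replicate 2 leave out 1894 of its cells, in an unnamed mixed cluster with podocyte as the top marker class. They are therefore no measure of how many podocytes that library held. A lower sum over all cells can come from fewer cells of a type or from less RNA per cell, and in such a sum these cannot be told apart. Within podocytes both aged libraries were above both young ones.

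C3ar1 encodes the receptor of C3a. It was found in macrophages at 256, 79.8, 187 and 134 CPM, from 2, 4, 655 and 669 UMIs. The young values rest on 3 and 12 cells, so no change with age was tested. Among aged macrophages 56.3% and 61.0% of cells had a UMI (17.9% and 13.6% thinned to 1000 UMIs). Endothelial cells, the background, had one in 0.166% to 0.301% of cells. In the Clec4e- and Lyz2-led cluster the share was 3.06% and 7.37% in young and 14.2% and 5.85% in aged libraries. Over all cells C3ar1 had 12 and 35 UMIs in young and 756 and 725 in aged libraries, or 0.609, 2.16, 21.9 and 19.6 CPM. Macrophages numbered 577 and 508 in aged libraries and carried 86.6% and 92.3% of those UMIs.

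**Figure D4:**
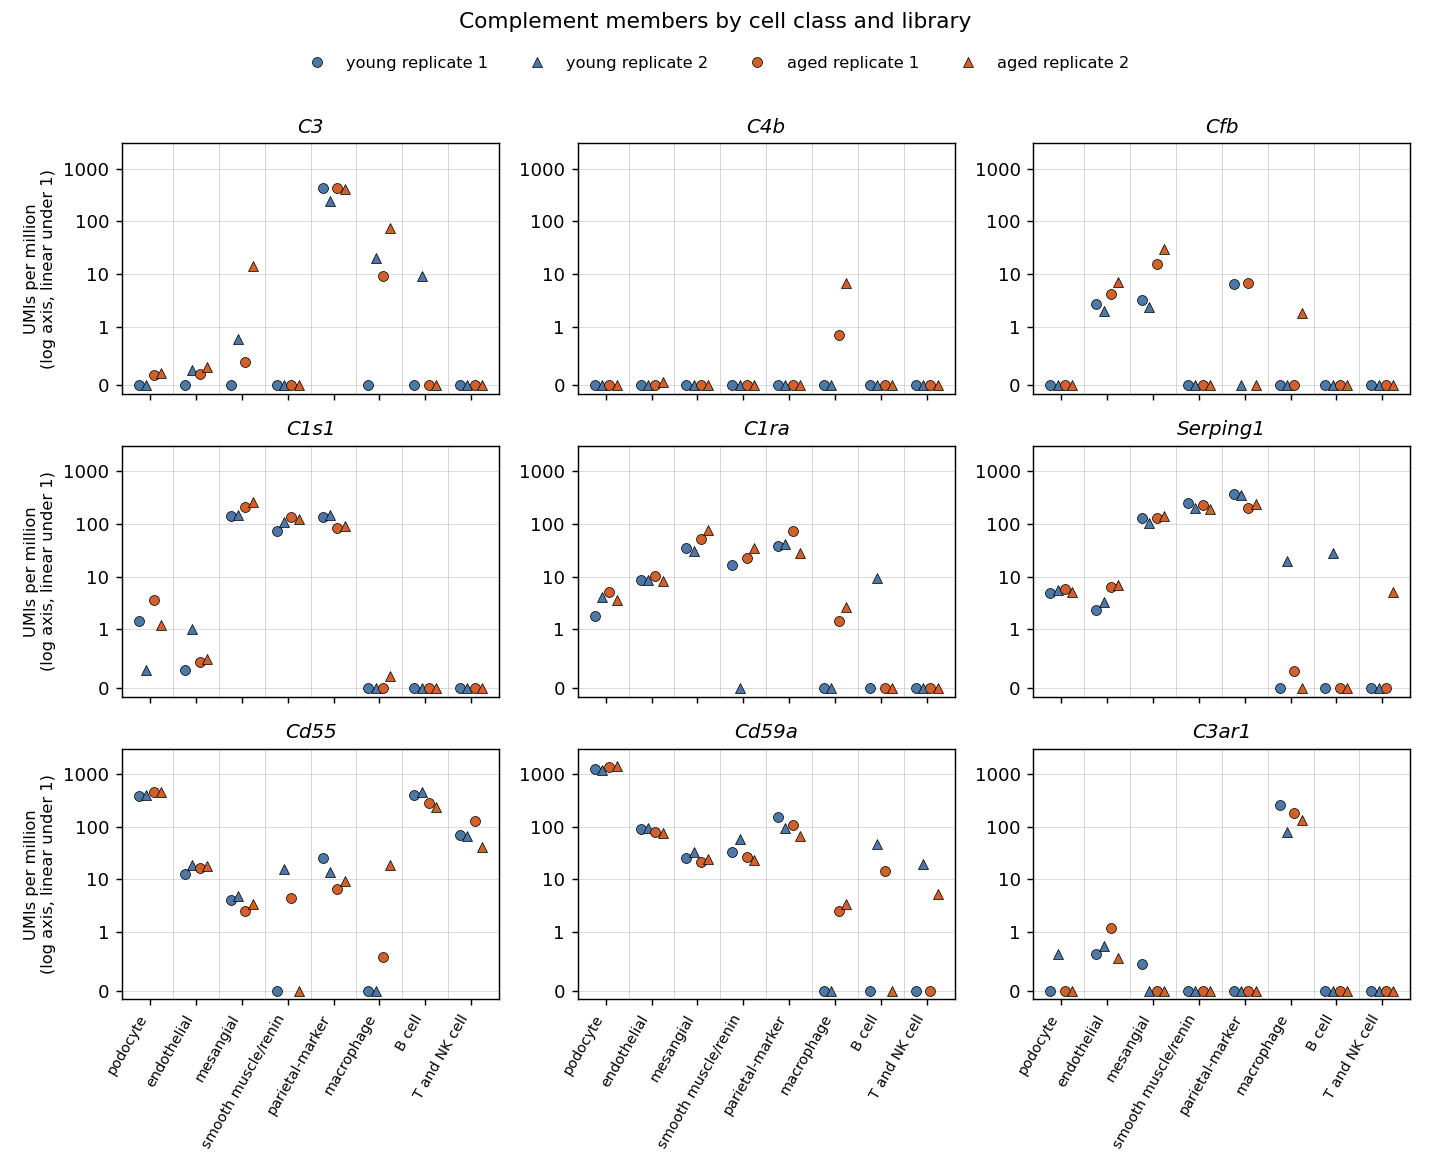
CPM of each of the 9 genes (vertical axis, logarithmic above 1 and linear below) by cell class, 1 point per library, young and aged in different colours. Cd59a reaches 1408 CPM in podocytes, C3 433 CPM in the parietal-marker cluster, and C4b is at 0 in nearly every class.

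Of 48 other complement genes, set by role, 11 passed the filter in endothelial cells, 10 in mesangial cells, 5 in podocytes, 4 in smooth muscle and renin cells and 2 in the parietal-marker cluster. Clu encodes clusterin, an inhibitor of the membrane attack complex, and it was called higher in 4 classes. It stood at 124 and 113 CPM in young and 226 and 193 CPM in aged endothelial cells (log2 fold change 0.94, SE 0.15, adjusted p = 0.000544). In smooth muscle and renin cells Clu stood at 28.8 and 15.8 against 199 and 99.2 CPM (2.82, adjusted p = 0.00149). In the parietal-marker cluster it stood at 278 and 388 against 767 and 671 CPM (1.13, adjusted p = 0.0138). In podocytes Clu stood at 1.05 and 1.26 against 4.47 and 5.49 CPM (2.18, adjusted p = 0.00289), a call that was reversed when mixed cells were kept (-0.33, adjusted p = 0.915). Leaving out a library lifted the adjusted p of Clu to 0.0656 and 0.110 in podocytes (young replicate 1, aged replicate 2) and to 0.0619 in smooth muscle and renin cells (aged replicate 1). In the parietal-marker cluster it lifted it to 0.0661, 0.545 and 0.500 (young replicate 1, aged replicates 1 and 2).

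In mesangial cells Cr1l, a mouse membrane regulator of C3 convertases, rose from 54.5 and 51.8 CPM to 86.3 and 80.1 CPM (log2 fold change 0.77, SE 0.17, adjusted p = 0.0166). Without young replicate 1 its adjusted p was 0.288, and without young replicate 2 it was 0.326. Itgam, a subunit of complement receptor 3 of myeloid cells, had 1 and 0 UMIs in young and 22 and 29 in aged mesangial sums. That is a ratio of 15.4 with an exact 95% interval of 2.64 to 618 (edgeR adjusted p = 0.0167). Itgam passed the count filter there only with the aged libraries. It was not called without young replicate 1 (0.280) or young replicate 2 (0.3).

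The C1q genes, whose product is the recognition unit of C1 and which macrophages make, were called higher in aged endothelial sums. They passed the count filter there only with the aged libraries. C1qa had 1, 2, 48 and 65 UMIs, a ratio of 12 (exact 95% interval 4.01 to 59.1, adjusted p = 0.000590). C1qb had 0, 1, 89 and 104 UMIs, a ratio of 61.5 (10.9 to 2443, adjusted p = 9.06e-06). C1qc had 0, 0, 44 and 54 UMIs and was at least 10.4-fold higher, against a floor of 3 counts over both young libraries (adjusted p = 0.000171). Beside them, the sum of 10 macrophage markers in endothelial cells moved as well, at 0.513% and 0.572% of its macrophage level in young and 1.39% and 1.08% in aged libraries. Of the 10, 5 and 9 had UMIs in young and 9 and 10 in aged libraries. Single markers differed. Csf1r stood at 0, 1.01, 0.685 and 0.614 CPM and Adgre1 at 0, 0.506, 0.0623 and 0.430 CPM. The aged values of these were not above young replicate 2. Cd68 was higher in both aged libraries, at 1.89 and 2.28 CPM in young and 3.36 and 3.32 CPM in aged ones. Lyz2 stood at 2.20, 10.1, 8.66 and 13.6 CPM. The named macrophages numbered 3 and 12 in young and 577 and 508 in aged libraries. The part of macrophage RNA in the C1q calls was not tested.

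Genes with the most similar pattern were found by Pearson's r of log2(CPM + 1) over the 28 class and library sums, among 8724 genes with a mean of at least 10 CPM. The points share libraries and classes, so r is a description. C1s1 was most like Ntrk2 (0.979), Cacna2d1 (0.978) and Pdgfc (0.974), and C3 most like Bmp3 (0.960), Cst12 (0.952) and Cpn1 (0.951). For Serping1 the nearest were Fxyd1 (0.953), Rcan2 (0.95) and Prkar1b (0.947), and for C1ra they were Cd302 (0.931), Gnai1 (0.917) and Il17rd (0.907). Cd59a was nearest to Kif5b (0.942), Itgb5 (0.934) and Lman1 (0.926), and Cd55 to Tspan13 (0.871), Malt1 (0.856) and Vamp4 (0.851). Cfb had lower values, with Ftl1 (0.815), Vcam1 (0.767) and Sdc3 (0.758). The patterns of C4b and C3ar1 over these classes rest on few UMIs and are not given.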

How the data were processed

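Single-cell 3′ libraries of glomeruli from young and aged mice were sequenced, with 2 libraries per group and the groups taken from the titles. The deposited matrices held raw counts of UMIs per gene and barcode, without normalization. Per the labels' protocols, Cell Ranger 3.1.0 was run on GRCm38, whereas the submitters' processing notes name Cell Ranger 6.0.1 and Partek, and which version made the counts is not known. Young totals were 22398650 and 18457791 UMIs, and aged totals 41697199 and 42046542. No column of per-sample values was left unused.

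Barcodes with at least 500 genes and at most 20% mitochondrial UMIs were kept, and the highest doublet scores were removed at 0.8% per 1000 barcodes. With scanpy 1.11.5 and leidenalg 0.10.2, 2000 variable genes without complement genes, 30 components, 15 neighbours and resolution 1 gave clusters. Clusters holding 2 marker sets were split again, for a total of 33. Of these, 23 were named from fixed markers at a relative level of at least 0.6. Clusters and cells with specific markers of an unrelated class at 0.2 and 0.25 of its level stayed unnamed. These thresholds were set after seeing the data. No fibroblast or proximal tubule class was found.

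UMIs were summed per class and library, for classes with at least 20 cells in each library. The sums were tested with edgeR 4.0.16 (quasi-likelihood F test, TMM, filterByExpr, Benjamini-Hochberg adjustment) in R 4.3.3, with the age group as the only term. Age by class interactions had the library as a block. Alternatives were DESeq2 1.42.0, its size factors, no filter, a replicate block, left-out libraries, and other cell filters, clusterings and mixed-cell rules. The test was checked on simulated counts. CPM has no TMM factor, and whether the groups of a member overlapped was judged on it. The shares of all genes with groups apart were taken on CPM scaled by TMM factors. Intervals are exact (Poisson or Clopper-Pearson) at 95%. The 9 genes and the lists were chosen with earlier results of these data known. All 9 were named in every class, other complement genes only where called (1 of the list is not reported here), and for each of the 9 the 3 most similar genes.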

Additional observations from a re-analysis of the deposited data

Results flagged for a closer look

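The age difference of 2 of the 9 genes differed between classes by the edgeR interaction test, in 3 of 20 combinations. For Serping1 the aged minus young log2 difference was -1.13 in mesangial minus endothelial cells (adjusted p = 0.0304) and -1.97 in the parietal-marker cluster minus endothelial cells (adjusted p = 0.000696). The endothelial side of both rests on 15 and 13 young UMIs. For C1s1 it was -1.45 in the parietal-marker cluster minus mesangial cells (adjusted p = 0.0189). The parietal-marker cluster held 31 to 59 cells a library, and its make-up of subclusters differed between libraries.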

How the results depend on the processing

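Of 313 values of the 22 log2 fold changes of the 9 genes under the alternatives, 281 kept their direction and their side of the threshold, 16 lost the call, 3 gained one and 13 changed sign. All sign changes were of changes that were not called. Members called in endothelial cells numbered 2, but 0 with DESeq2 and with no filter, 1 with doublets kept and without the Sele-led cluster, and 0 to 2 with a library left out. Members called in mesangial cells numbered 3, but 5 with doublets kept and 0 to 4 with a library left out. The count of 4 was without aged replicate 1, where C3 passed the count filter and was called on aged replicate 2 alone. With doublets kept Cd55 (-1.83, adjusted p = 0.0262) and Cd59a (-0.86, adjusted p = 0.0168) were called lower there, and with mixed cells kept Serping1 was called higher (0.54, adjusted p = 0.0282). Genes called in all moved as well. DESeq2 called 268 in podocytes, 513 in endothelial cells, 428 in mesangial cells, 23 in smooth muscle and renin cells and 41 in the parietal-marker cluster. With no filter the counts were 19 endothelial, 1309 mesangial, 112 smooth muscle, 8 B cell and 312 parietal-marker. Doublets kept gave 1284 mesangial, 153 smooth muscle and 2 B cell calls, mixed cells kept gave 71 podocyte and 1544 mesangial calls, and resolution 2 gave 243 podocyte and 141 smooth muscle calls. The 10% mitochondrial limit gave 34 parietal-marker calls, and library totals 1 B cell call. With a library left out the counts ranged over 304 to 767 in podocytes, 366 to 750 in endothelial, 0 to 1732 in mesangial, 70 to 111 in smooth muscle and 0 to 6 in B cells, and 0 to 172 in the parietal-marker cluster.

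The replicate block gave 1436 endothelial, 1735 mesangial, 149 smooth muscle and 205 parietal-marker calls. Same-numbered libraries did not deviate together (r from -0.063 to 0.071 over 7 classes), so the numbers were not read as pairs. Sign changes were as follows. Serping1 in podocytes was -0.15 at resolution 2 and -0.35 with mixed cells kept. In mesangial cells Cd55 was 0.01 and Cd59a 0.18 at the 10% limit, and 0.26 and 0.21 at resolution 2. Serping1 in smooth muscle and renin cells was 0.43 with doublets kept, 0.11 at the 10% limit, 0.08 at resolution 2, 0.34 with mixed cells kept and -0.20 to 0.11 with a library left out. C3 in the parietal-marker cluster ranged from -0.02 to 0.93 with a library left out. Clu in podocytes was -0.33 with mixed cells kept. The cause of these moves was not tested. Young levels of C3, C4b and C3ar1 in macrophages rest on 3 and 12 cells, and depth limits what can be said of them.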
